A study of Mus musculus with 16 samples.

Results

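Dentate granule cell genes were described in the mouse hippocampus as a set of 8 genes that mark mature granule neurons: Prox1, Dsp, C1ql2, C1ql3, Calb1, Trpc6, Glis3 and Tdo2. They were taken by gene name from a table of raw counts with 49315 genes, in which each name matched 1 row, and all 8 were among the 17469 genes that passed the filter on low counts. The 16 libraries came in 4 groups of 4, since wild type mice and Kcna1 knockout mice were each kept on a standard or a ketogenic diet. The tissue field reads brain and the sample descriptions name the hippocampus; the labels give no strain, age, sex, knockout construction or diet duration. The protein of Kcna1 forms part of an axonal potassium channel, mice without it have spontaneous seizures, and a ketogenic diet replaces most carbohydrate with fat. Nothing in the labels says more than that the 4 samples of a group are separate, so p-values measure the spread between these samples.

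Granule cells are the principal neurons of the dentate gyrus, the entry station of the hippocampus, and their axons, the mossy fibres, contact CA3 pyramidal cells and hilar interneurons. The homeobox factor Prox1 gives these cells their identity and keeps it in the adult. Calbindin and several neuropeptides in granule cells are known to change with seizures in rodents. In bulk tissue, fewer granule cells and less RNA per granule cell cannot be told apart.

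One library stood apart before any member was read. Kcna1 was at 107 to 130.1 counts per 1000000 counts of the library (CPM) in the 8 wild type libraries and at 43.4 to 47.2 CPM in 7 of the 8 libraries labelled knockout, but at 82.0 CPM in the eighth, KC888LL, on the standard diet. Calls of members by edgeR in comparisons that include KC888LL are therefore given with and without it, and those by DESeq2 only with it. Total counts were 13440230 to 22309504. The Y-linked gene Ddx3y was at 56.5 to 65.1 CPM in 4 libraries (KC890RL of the wild type and KC872RL and KC873RR of the knockout on the standard diet, KC846L of the wild type on the ketogenic diet) and at no more than 1.62 CPM in the other 12. Gfap, the intermediate filament of astrocytes that is raised in reactive gliosis, was at 294 to 390.4 CPM in the wild type libraries and at 288 to 2327 CPM in those labelled knockout.

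The members separated by behaviour. C1ql2 was above all 8 wild type libraries in 7 of the 8 libraries labelled knockout, and Dsp and Tdo2 were below all 8 in 5 of them, 3 on the standard and 2 on the ketogenic diet. Calb1 was below all wild type libraries in 3, each on the standard diet. Prox1 stayed inside the wild type range. On the ketogenic diet 3 knockout libraries were above all 8 wild type libraries for Glis3, 2 for Trpc6 and 1 for C1ql3. None of the 8 passed an adjusted p of 0.05 with all 16 libraries in the edgeR fit. Leaving out KC888LL brought C1ql2, Dsp and Calb1 past that threshold on the standard diet, in a fit where the genes called rose from 1 of 17469 to 1016 of 17725 (5.73%). The sequences just upstream of the RefSeq starts of C1ql2, Dsp and Tdo2, the members outside the range of all 8 wild type libraries in 5 or more of the libraries labelled knockout, are shown here, from the RefSeq promoter table of GRCm38.p6, each as the 250 bases that end at the base before the annotated start, 5′ to 3′ on the gene's strand: C1ql2 at chr1:120340332-120340581 on the plus strand, Dsp at chr13:38151044-38151293 on the plus strand and Tdo2 at chr3:81975729-81975978 on the minus strand. The Tdo2 window lies inside the gene as GENCODE M21 places it, since that annotation has an earlier start on the minus strand. Capitals mark a match to a TATA box.
C1ql2: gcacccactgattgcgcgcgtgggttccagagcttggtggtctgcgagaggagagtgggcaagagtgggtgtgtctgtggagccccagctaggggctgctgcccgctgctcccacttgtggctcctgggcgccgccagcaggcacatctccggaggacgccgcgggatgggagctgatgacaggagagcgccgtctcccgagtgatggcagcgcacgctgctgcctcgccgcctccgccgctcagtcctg
Dsp: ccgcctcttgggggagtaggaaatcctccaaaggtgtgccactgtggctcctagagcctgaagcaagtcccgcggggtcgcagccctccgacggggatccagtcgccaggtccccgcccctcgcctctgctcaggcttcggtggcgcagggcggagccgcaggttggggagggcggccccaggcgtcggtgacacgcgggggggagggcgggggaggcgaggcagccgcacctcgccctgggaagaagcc
Tdo2: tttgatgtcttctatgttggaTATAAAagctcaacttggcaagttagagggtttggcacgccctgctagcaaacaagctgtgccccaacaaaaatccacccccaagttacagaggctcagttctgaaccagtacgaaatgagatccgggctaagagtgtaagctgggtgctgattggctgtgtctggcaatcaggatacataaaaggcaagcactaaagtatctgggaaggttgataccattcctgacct

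The windows of C1ql2 and Dsp were rich in G and C, at 68.8% and 72.4%, and that of Tdo2 held 46.4%. On both strands 3 letter strings were searched, none of which contains another: the AP-1 site TGANTCA, the CRE half-site TGACG and the TATA box TATAAA. They were present in 6.75%, 17.8% and 12.4% of the 32851 promoter windows of the table. C1ql2 and Dsp held none of them, and Tdo2 held TATAAA at -229 to -224 from the start. Of the other members, 7 of 8 matched the table in all, Prox1 held the TATA box letters on the strand opposite the gene at -34 to -29 and Trpc6 held TGACG at -103 to -99. A match is a string of letters and was not measured as a bound site.

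C1ql2 encodes a secreted C1q-like protein that granule cells release at mossy fibre synapses, where it clusters kainate receptors. The gene (ENSMUSG00000036907) lies at 120340582 to 120343174 on the plus strand of chromosome 1 (GRCm38). Wild type libraries on the standard diet held it at 31.7, 34.3, 32.4 and 31.2 CPM. The libraries labelled knockout on that diet held 81.1, 76.9 and 66.2 CPM in KC872RL, KC873RR and KC893RL and 38.4 CPM in KC888LL. All 4 lay above the 4 wild type libraries, so the groups did not overlap, and KC888LL was the closest to them. The means were 32.4 ± 1.36 and 65.6 ± 19.2 CPM (SD, n = 4). The difference was 1.02 ± 0.22 (SE) on the log2 scale (edgeR, adjusted p = 0.192), which ranked C1ql2 at 41 of 17469 genes by p.

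The same gene on the ketogenic diet was at 42.4, 38.1, 37.0 and 41.0 CPM in wild type. Knockout libraries KC913RR and KC934R held 90.8 and 74.5 CPM, and KC916RRL and KC935LL held 51.3 and 48.3 CPM. Again every knockout library lay above every wild type library of its diet, with means of 39.6 ± 2.50 and 66.2 ± 20.1 CPM (SD, n = 4). Its difference was 0.74 ± 0.22 on the log2 scale (edgeR, adjusted p = 0.404), and it was 0.56 without KC913RR and 0.87 without KC935LL. Averaged over both diets it was 0.88 ± 0.16, with edgeR's adjusted p = 0.0623. In 7 of the 8 libraries labelled knockout, C1ql2 exceeded the highest of all 8 wild type libraries, and KC888LL was the exception.

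Dsp encodes desmoplakin, the protein that ties desmosomes to intermediate filaments, and in the brain its transcript is a textbook marker of granule cells. It lies at 38151294 to 38198577 on the plus strand of chromosome 13 (ENSMUSG00000054889). In wild type on the standard diet it was at 111, 136, 75.0 and 98.6 CPM. KC872RL, KC873RR and KC893RL held 28.6, 37.6 and 26.1 CPM, and KC888LL held 118 CPM. Thus 3 of the 4 libraries labelled knockout were below every wild type library and the fourth was inside their range. The means were 105 ± 25.6 and 52.5 ± 43.8 CPM (SD, n = 4), and the log2 fold change of -1.001 ± 0.50 did not pass (edgeR, adjusted p = 0.389).

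Wild type libraries on the ketogenic diet held Dsp at 108, 105, 96.0 and 198 CPM. Knockout libraries KC913RR and KC934R held 50.6 and 39.1 CPM, whereas KC916RRL and KC935LL held 106 and 102 CPM, inside the wild type range. The means were 127 ± 47.6 and 74.5 ± 34.6 CPM (SD, n = 4), with a log2 fold change of -0.77 ± 0.49 (edgeR, adjusted p = 0.660), or -0.47 without KC846L. Over both diets the value was -0.89 ± 0.35, with edgeR's adjusted p = 0.250. The 2 ketogenic knockout libraries with low Dsp were those with the highest C1ql2 of their group.

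Tdo2 encodes tryptophan 2,3-dioxygenase, which opens the kynurenine pathway of tryptophan breakdown and is known as a marker of mature granule cells. Its gene (ENSMUSG00000028011) lies at 81957090 to 81976202 on the minus strand of chromosome 3. It was the least abundant member, with 14 to 179 counts per library, so its values are the least precise. Wild type libraries held 6.60, 5.72, 3.20 and 5.10 CPM on the standard diet and 6.09, 6.10, 4.60 and 8.15 CPM on the ketogenic diet. Those labelled knockout held 2.82, 2.33 and 3.04 CPM in KC872RL, KC873RR and KC893RL, with 4.87 CPM in KC888LL. Under the ketogenic diet KC913RR and KC934R held 0.937 and 2.43 CPM, against 5.76 and 5.93 CPM in KC916RRL and KC935LL. The same 5 libraries that were below the wild type in Dsp were below it in Tdo2. The log2 fold changes were -0.66 ± 0.41 (edgeR, adjusted p = 0.496) and -0.74 ± 0.41 (adjusted p = 0.593), and that over both diets was -0.70 ± 0.29 (adjusted p = 0.259). The ketogenic value was -0.42 without KC913RR.

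Calb1 encodes calbindin, a calcium-buffering protein abundant in granule cells and present also in some CA1 cells and interneurons. It lies at 15881264 to 15908064 on the plus strand of chromosome 4 (ENSMUSG00000028222). On the standard diet wild type libraries held 118, 114, 95.0 and 129 CPM. KC872RL, KC873RR and KC893RL held 73.5, 80.7 and 74.5 CPM, and KC888LL held 129 CPM. As for Dsp, 3 libraries lay below all wild type libraries of the diet, and KC888LL was level with the highest of them. The log2 fold change was -0.35 ± 0.15 (edgeR, adjusted p = 0.321). Ketogenic knockout libraries held 125, 115, 97.0 and 113 CPM and the wild type libraries 123, 115, 120.4 and 131 CPM. Here too 3 libraries lay below all wild type libraries of the diet, KC916RRL by less than 1 CPM, while KC913RR was inside their range and none was below all 8 wild type libraries. The log2 fold change was -0.12 ± 0.15 (edgeR, adjusted p = 0.834), or -0.06 without KC934R. The Calb1 value of KC913RR, at 125 CPM, was the highest of its group although its Dsp and Tdo2 were among the lowest.

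**Figure D1:**
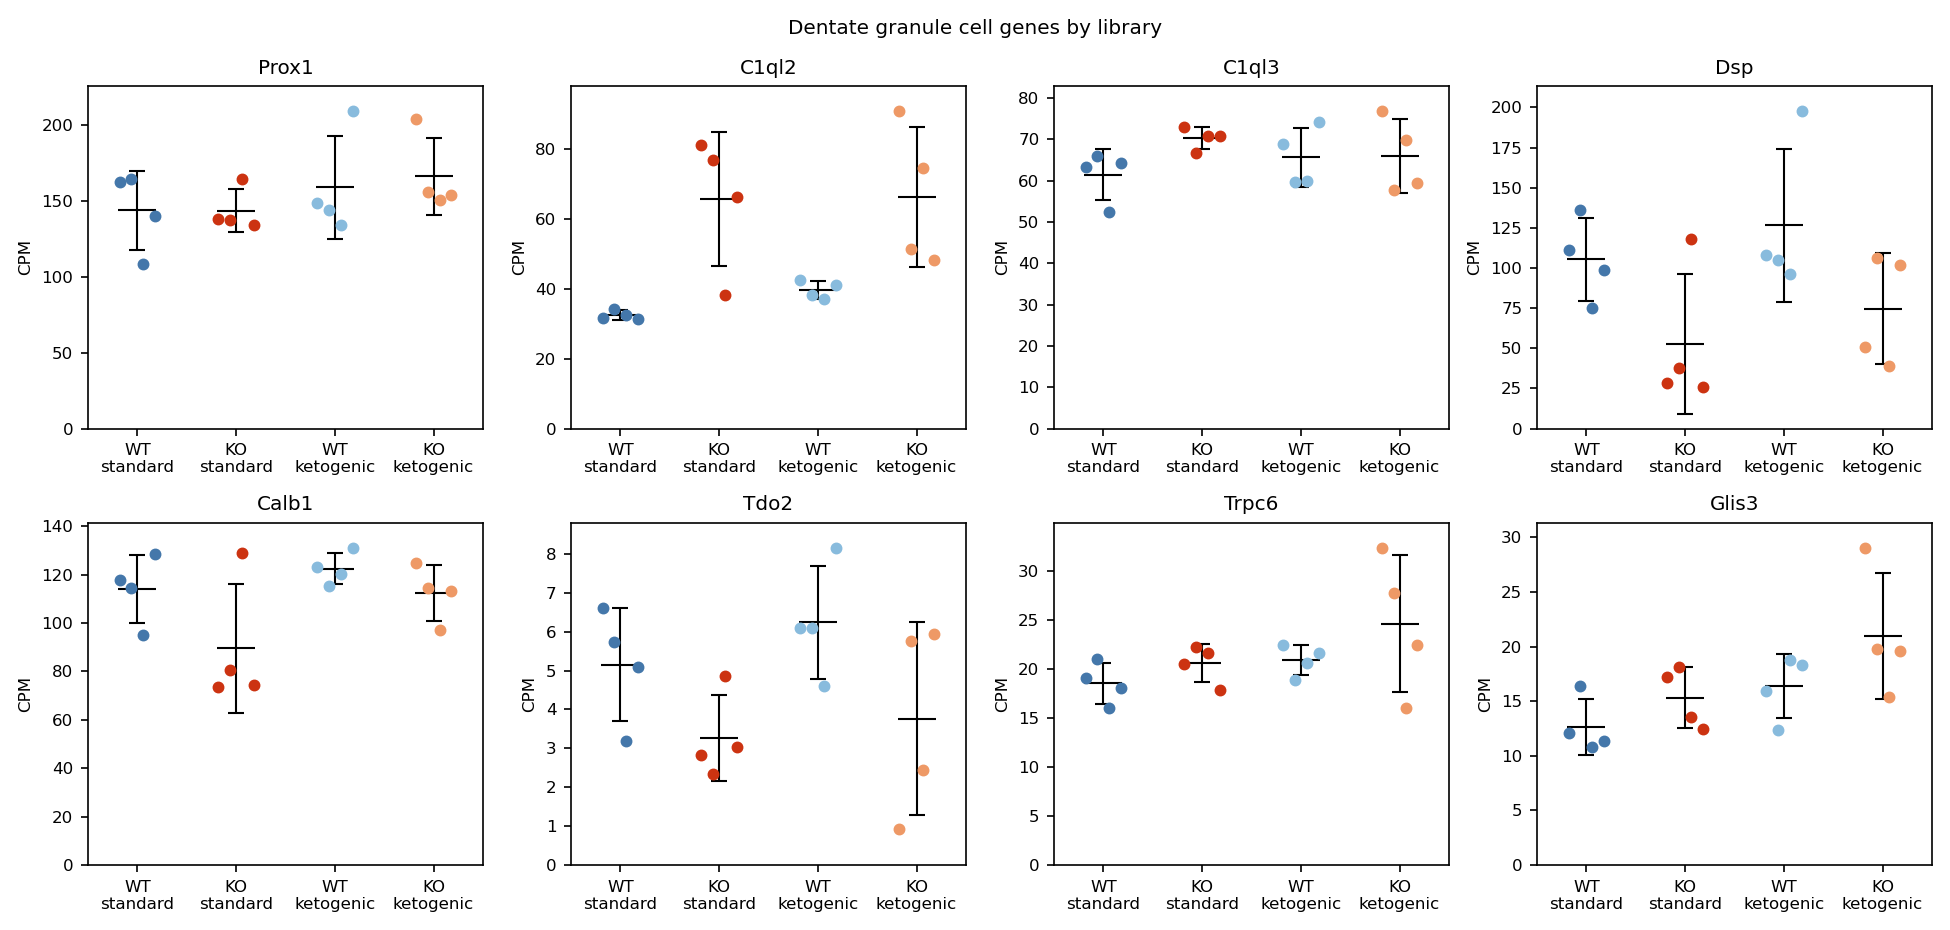
CPM (vertical axes, linear from 0) of each of the 8 members in every library, by group, with points for libraries and bars for the group mean and SD (n = 4). C1ql2 in libraries labelled knockout lay above the wild type libraries of the same diet, Dsp was at 26.1 to 50.6 CPM in 5 knockout libraries and at 75.0 CPM or more elsewhere, and Prox1 overlapped in all groups.

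Prox1, the identity factor, did not separate the genotypes. The gene (ENSMUSG00000010175) lies at 190118035 to 190170714 on the minus strand of chromosome 1. Wild type libraries held 162, 164, 108 and 139.9 CPM on the standard diet and 148, 144, 134 and 209 CPM on the ketogenic diet. Those labelled knockout held 138, 137, 164 and 134 CPM, and on the ketogenic diet 204, 156, 151 and 154 CPM. No library labelled knockout was outside the wild type range of 108 to 209 CPM. The log2 fold changes were -0.00 ± 0.15 for the standard diet (edgeR, adjusted p = 0.995) and 0.06 ± 0.15 for the ketogenic one (adjusted p = 0.922).

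C1ql3, a second secreted C1q-like protein of mossy fibres, differed less than C1ql2. It lies at 13003457 to 13011806 on the minus strand of chromosome 2 (ENSMUSG00000049630). On the standard diet it was at 63.2, 66.0, 52.3 and 64.4 CPM in wild type and at 72.9, 66.6, 70.9 and 70.8 CPM in the libraries labelled knockout. The groups did not overlap, by a margin of less than 1 CPM, and KC888LL was not apart from its group here. The log2 fold change was 0.19 ± 0.09 (edgeR, adjusted p = 0.354), or 0.12 without KC897RR. Under the ketogenic diet the ranges overlapped, at 59.6 to 74.1 CPM in wild type and 57.7 to 76.7 CPM in knockout, and the log2 fold change was 0.01 ± 0.09 (edgeR, adjusted p = 0.988).

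Trpc6, a calcium-permeable cation channel gated by diacylglycerol, and Glis3, a zinc finger transcription factor, were less abundant and differed by less than 0.4 on the log2 scale between genotypes. Trpc6 lies on the plus strand of chromosome 9 at 8544142 to 8680741 (ENSMUSG00000031997) and Glis3 on the minus strand of chromosome 19 at 28258851 to 28680077 (ENSMUSG00000052942). Trpc6 was at 15.996 to 22.4 CPM over all wild type libraries, at 17.8 to 22.3 CPM in libraries labelled knockout on the standard diet, and at 32.3, 27.7, 16.02 and 22.4 CPM in those on the ketogenic diet. Its log2 fold changes by genotype were 0.15 ± 0.16 (edgeR, adjusted p = 0.713) and 0.23 ± 0.15 (adjusted p = 0.670), and over the alternatives they ranged from 0.09 (without KC897RR) to 0.22 and from 0.07 (without KC913RR) to 0.39 (without KC934R). Glis3 was at 10.8 to 16.4 CPM in wild type and 12.4 to 18.1 CPM in libraries labelled knockout on the standard diet. Its ketogenic values were 12.4 to 18.7 CPM in wild type and 29.0, 19.8, 15.4 and 19.6 CPM in knockout. Its log2 fold changes were 0.28 ± 0.20 (edgeR, adjusted p = 0.544) and 0.35 ± 0.19 (adjusted p = 0.583). They were 0.43 without KC894RLL on the standard diet and 0.16 without KC913RR on the ketogenic diet, and 0.16 on the standard diet with Xist as a covariate. KC913RR was the highest library of all 16 for Trpc6, Glis3 and C1ql2.

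Read as a set, 0 of 8 members were called between genotypes on the standard diet in the edgeR fit, where 0.00572% of the tested genes were called at an adjusted p under 0.05. At an unadjusted p under 0.05 there were 2 members, C1ql2 higher and Calb1 lower, against 14.3% of all genes. C1ql2 and C1ql3 did not overlap between groups, against 5.86% of all genes. On the ketogenic diet 0 of 8 were called, against 0.0172% of genes. C1ql2 was the 1 member at an unadjusted p under 0.05, against 9.22%, and the 1 member without overlap, against 3.98%. The median log2 fold change of the members was 0.07 and 0.04 on the 2 diets, beside 0.00 and 0.00 over all tested genes, with members on both sides of 0. Without KC888LL the members' median on the standard diet was 0.02. In the difference averaged over both diets, chosen after seeing the data, 0 of 8 members passed beside 0.0973% of genes, and 5 had an unadjusted p under 0.05 (C1ql2 and Glis3 higher, Dsp, Tdo2 and Calb1 lower) beside 15.8%. The members were themselves chosen with earlier results of these data known. These counts therefore describe the set and do not test it against all genes. Glis3 had a log2 fold change of 0.32 ± 0.14 there (edgeR, adjusted p = 0.271).

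The tool mattered for C1ql2. With DESeq2 it was the 1 member called, with an adjusted p of 0.00112 on the standard diet, 0.0497 on ketogenic food and 8.57e-07 over both diets. DESeq2 called 0.967%, 0.258% and 2.38% of all tested genes in these comparisons. The smaller p of DESeq2 came with the same 16 libraries and the same direction. DESeq2 was not run with a library left out.

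With edgeR, members were called on the standard diet only when KC888LL was left out. Without it, in a fit that called 5.73% of genes, C1ql2 was higher in knockout by 1.20 ± 0.17 on the log2 scale (adjusted p = 0.00242). Calb1 was lower, at -0.59 ± 0.09 (edgeR, adjusted p = 0.00242), and so was Dsp, at -1.78 ± 0.41 (adjusted p = 0.0304). The other 5 members were not called without it: Tdo2 was at -0.92 ± 0.45 (edgeR, adjusted p = 0.258) and Prox1 at -0.08 ± 0.17 (adjusted p = 0.840). Over both diets without KC888LL, the 3 called members were again C1ql2 at 0.97 ± 0.12 (edgeR, adjusted p = 9.85e-04), Calb1 at -0.36 ± 0.06 (adjusted p = 0.00440) and Dsp at -1.28 ± 0.27 (adjusted p = 0.0220), beside 4.96% of genes. C1ql2 over both diets also passed without KC916RRL (edgeR, adjusted p = 0.0320) and without KC935LL (adjusted p = 0.0370), in fits that called 0.722% and 0.339% of genes.

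**Figure D2:**
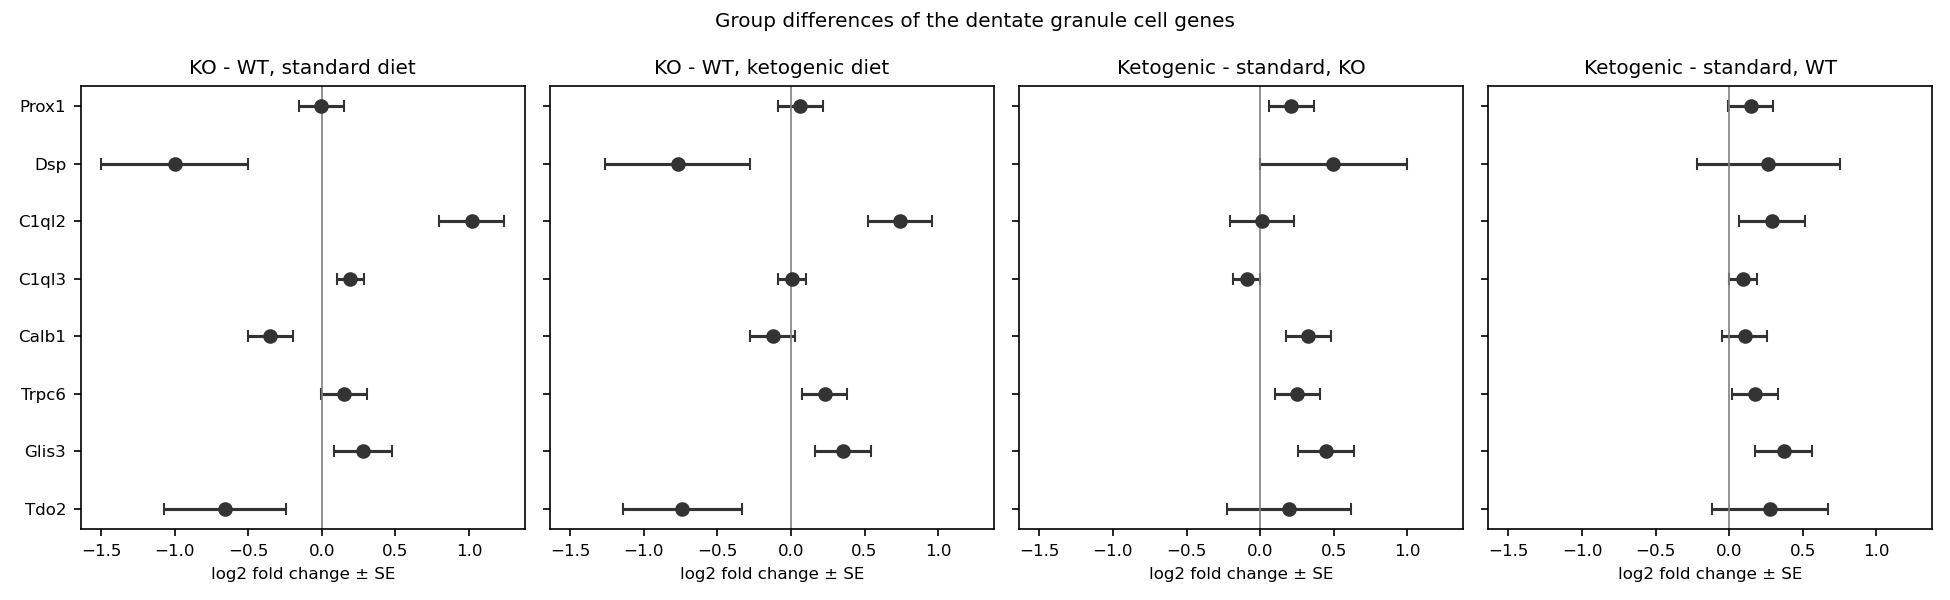
Log2 fold change of each member with its SE (horizontal axis) in the pairwise comparisons, from the edgeR fit of all 16 libraries. C1ql2 was at 1.02 and 0.74 between genotypes on the standard and ketogenic diets, Dsp at -1.001 and -0.77, and Prox1 at -0.003 and 0.063.

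The diet contrast asks whether the ketogenic diet moved these genes in either genotype. Among wild type libraries all 8 members had a log2 fold change above 0, from 0.09 to 0.37, with a median of 0.22 beside -0.00 over all genes. Without KC846L, Dsp and Prox1 were below 0, at -0.03 and -0.01. With all libraries, all 12 further granule cell genes of the list read below were also above 0, with a median of 0.18. So were all 6 CA1 genes, with a median of 0.16, and no gene of either list was called. In the same contrast all 6 oligodendrocyte genes were lower, each at an unadjusted p under 0.05 and none called, with a median of -0.49, and their part in the members' values was not tested. None of the 8 members was called (0.0114% of genes were) and none of them had an unadjusted p under 0.05 in edgeR, against 5.46% of genes. Glis3 had the largest value, at 0.37 ± 0.19 (edgeR, adjusted p = 0.939). C1ql2 was the 1 member without overlap, at 37.0 to 42.4 CPM on the ketogenic and 31.2 to 34.3 CPM on the standard diet, against 4.88% of genes, with a log2 fold change of 0.29 ± 0.22 (edgeR, adjusted p = 0.986).

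In knockout, 7 of 8 members had a log2 fold change above 0 on the ketogenic diet and the median was 0.23, beside 0.01 over all genes. None of the 8 was called, where 1.16% of genes were, and none was without overlap, where 6.39% were. Glis3, at 0.44 ± 0.19 (edgeR, adjusted p = 0.249), and Calb1, at 0.33 ± 0.15 (adjusted p = 0.293), had an unadjusted p under 0.05, against 16.9% of genes. Dsp was at 0.50 ± 0.50 (edgeR, adjusted p = 0.667), and C1ql2 at 0.01 ± 0.22 (adjusted p = 0.984). In the same contrast all 6 oligodendrocyte genes were called lower, with a median of -0.92. All 6 microglia genes were lower, with a median of -0.70 and 0 called, and 5 of 6 CA1 genes were higher, with a median of 0.32 and 0 called. The part of these cell types in the members' values was not tested. Without KC888LL, Calb1 was higher on the ketogenic diet by 0.56 ± 0.09 (edgeR, adjusted p = 0.00334) and was the 1 member called, beside 6.18% of genes. Dsp was then at 1.28 ± 0.40 (edgeR, adjusted p = 0.0877), whereas it was 0.28 without KC893RL, and Glis3 was 0.24 without KC913RR. Of the standard diet knockout libraries that remain without KC888LL, KC872RL and KC873RR held Ddx3y. The ketogenic knockout libraries held it at no more than 0.150 CPM. With Xist as a covariate and all 16 libraries, 7 genes were called in this contrast, where 202 were called without the covariate. The part of this imbalance in the Calb1 call was not tested. The 2 diet contrasts share no libraries with each other, but each shares its libraries with the genotype contrasts.

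Whether the genotype difference itself depended on diet was tested as an interaction. No member was called, as was 0% of all genes, and none had an unadjusted p under 0.05, against 7.48% of genes. The C1ql2 difference was -0.28 ± 0.31 (edgeR, adjusted p = 0.868), that of Dsp 0.23 ± 0.70 (adjusted p = 0.958) and that of Calb1 0.22 ± 0.22 (adjusted p = 0.834). These errors leave room for differences of the size of the effects themselves. Without KC888LL the Calb1 interaction was 0.46 ± 0.12, with edgeR's adjusted p = 0.176, and again 0% of genes passed. Over the alternatives the interaction ranged from 0.01 (without KC893RL) to 1.01 (without KC888LL) for Dsp, from 0.14 to 0.46 for Calb1 and from -0.46 (without KC913RR) to -0.04 for C1ql2. On each diet 3 libraries labelled knockout were below all wild type libraries of that diet in Calb1, but the margins were not alike. On the standard diet they held 73.5 to 80.7 CPM, where the lowest wild type library held 95.0 CPM. On the ketogenic diet they held 97.0 to 114.6 CPM, where the lowest wild type library held 115.3 CPM. Below the wild type libraries of both diets were 3 on the standard and 0 on the ketogenic diet. A difference between the diets was not established by the interaction test.

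Dsp and C1ql2 ran in opposite directions between 2 sets of libraries, but not within the set of low Dsp. There KC913RR was the highest and KC893RL the lowest in both genes. The 5 libraries with Dsp at 26.1 to 50.6 CPM (KC872RL, KC873RR, KC893RL, KC913RR and KC934R) had C1ql2 at 66.2 to 90.8 CPM, Tdo2 at 0.937 to 3.04 CPM and Gfap at 611 to 2327 CPM. The other 11, which include KC888LL, KC916RRL and KC935LL, had Dsp at 75.0 to 198 CPM, C1ql2 at no more than 51.3 CPM, Tdo2 at 3.20 to 8.15 CPM and Gfap at no more than 390.4 CPM. The labels do not divide the knockout libraries in this way, and the 2 sets were not tested against each other. Kcna1 does not mark the division on the ketogenic diet, since all 4 knockout libraries there had 43.4 to 47.2 CPM. KC872RL and KC873RR were among the libraries with Ddx3y, and KC893RL, KC913RR and KC934R were not. With log2 CPM of Xist as a covariate the log2 fold changes between genotypes on the standard diet were 0.87 for C1ql2, -0.97 for Dsp and -0.67 for Tdo2.

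**Figure D3:**
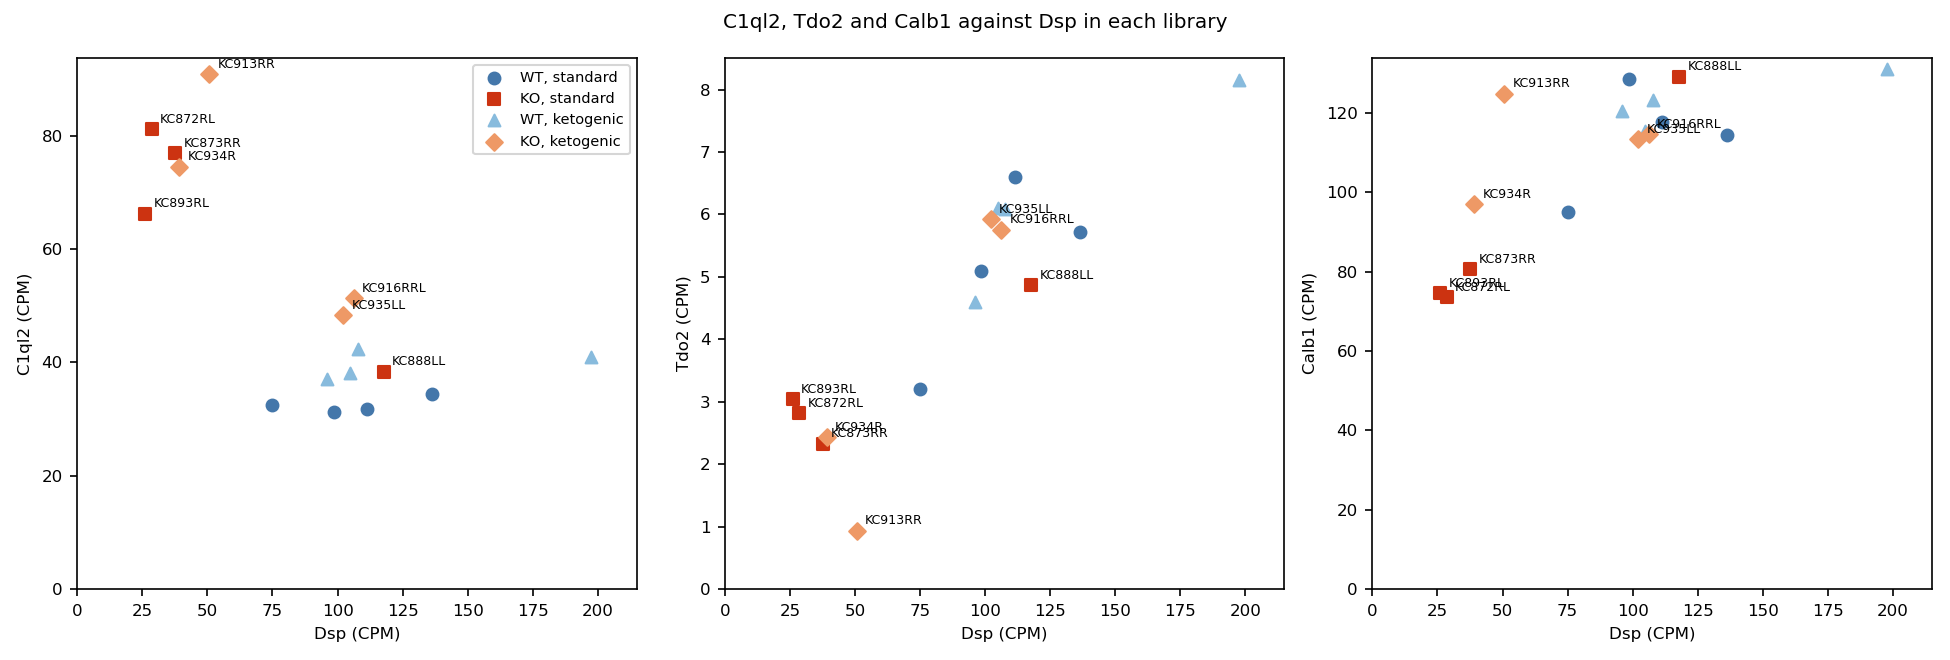
Dsp CPM (horizontal axis) against the CPM of C1ql2, Tdo2 and Calb1 (vertical axes) in the 16 libraries, coloured by group, with libraries labelled knockout named. The 5 knockout libraries with Dsp at 50.6 CPM or less held C1ql2 at 66.2 CPM or more and Tdo2 at 3.04 CPM or less.

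As a description over the 16 libraries, which share genotype and diet, log2 CPM of Dsp had Pearson's r of 0.86 with Calb1, 0.76 with Tdo2 and -0.79 with C1ql2. C1ql2 and Tdo2 had r = -0.77. Trpc6 and Glis3 ran together at r = 0.84, and Prox1 followed C1ql3 (r = 0.62) and Trpc6 (r = 0.62) more than Dsp (r = 0.38) or C1ql2 (r = 0.16). Over all tested genes, the 2 genes most like a member were Npnt (0.88) and Celf1 (0.87) for Prox1, Rasgrf1 (0.96) and Rasd2 (0.95) for Dsp, and Olfm4 (0.95) and Ypel5 (0.94) for C1ql2. They were Rasgrf2 (0.97) and Gm20219 (0.95) for Tdo2, and Gabra4 (0.92) and Gm13713 (0.85) for C1ql3. The gene most like Calb1 was Eftud2 (0.92). Trpc6 and Glis3 were in each other's pair, with Tead3 (0.82) for Trpc6 and Rreb1 (0.88) for Glis3.

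Dividing each member by Prox1 in the same library sets it against another granule cell gene, a scale added after seeing the data and used without a test. Dsp was at 0.687 to 0.946 of Prox1 in the 8 wild type libraries. It was at 0.208, 0.274 and 0.195 in KC872RL, KC873RR and KC893RL, at 0.248 and 0.260 in KC913RR and KC934R, and at 0.716, 0.682 and 0.664 in KC888LL, KC916RRL and KC935LL. C1ql2 was at 0.196 to 0.300 of Prox1 in wild type and at 0.314 to 0.589 in the libraries labelled knockout other than KC888LL, which was at 0.233. Tdo2 was at 0.0296 to 0.0424 in wild type and at 0.00459 to 0.0227 in the 5 libraries with low Dsp. Calb1 was at 0.533, 0.588 and 0.557 in KC872RL, KC873RR and KC893RL, below the lowest wild type ratio of 0.627 in KC846L, and KC913RR, at 0.612, was also below it. The same 5 libraries had the lowest Dsp and Tdo2 on either scale. The order within them changed, and for C1ql2 KC888LL came inside the wild type ratios of its diet and KC913RR was no longer the highest library.

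**Figure D4:**
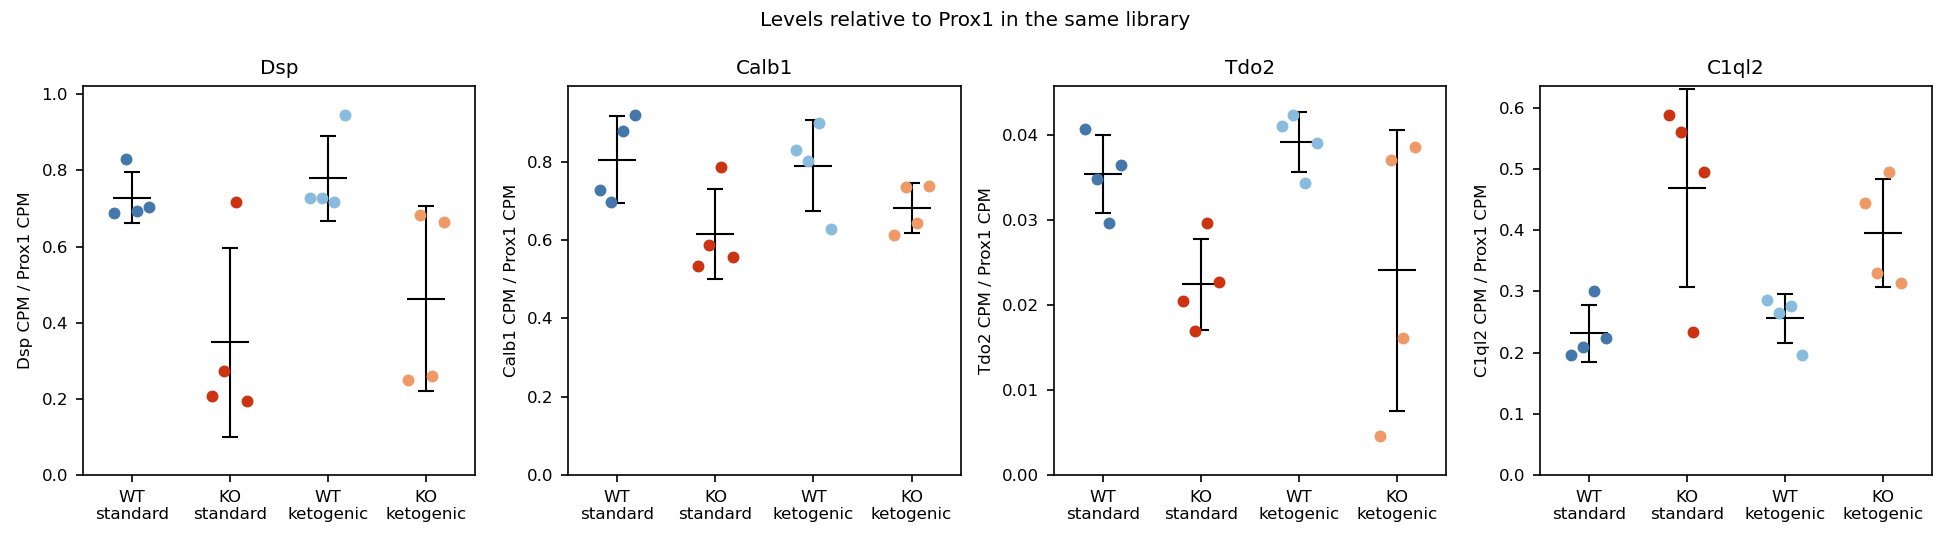
CPM of Dsp, C1ql2, Calb1 and Tdo2 divided by Prox1 CPM of the same library (vertical axes, no unit), by group, with points for libraries and bars for the group mean and SD (n = 4). Wild type libraries held Dsp at 0.687 to 0.946 of Prox1, and 5 knockout libraries held 0.195 to 0.274.

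Levels of the members were compared with one another per length, as CPM per kilobase of exon. In wild type on the standard diet the order was C1ql3 at 24.2 ± 2.45, Calb1 at 23.5 ± 2.89, Prox1 at 17.1 ± 3.12, C1ql2 at 16.2 ± 0.681, Dsp at 10.9 ± 2.65, Trpc6 at 3.66 ± 0.413, Glis3 at 1.43 ± 0.286 and Tdo2 at 1.33 ± 0.371 (SD, n = 4). C1ql3 and Calb1 lay within one SD of each other, as did Prox1 and C1ql2, and Glis3 and Tdo2. In the libraries labelled knockout on the standard diet C1ql2 had the highest mean level of the 8, at 32.8 ± 9.61, above C1ql3 at 27.7 ± 1.04 and Calb1 at 18.5 ± 5.49, and Dsp was at 5.44 ± 4.53. With the ketogenic diet the mean level of C1ql2 in knockout was 33.1 ± 10.1 and in wild type 19.8 ± 1.25. The SD of C1ql2 in both knockout groups was wide enough that it and C1ql3, at 26.0 ± 3.55 on the ketogenic diet, lay within one SD of each other.

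Other genes of the granule cell were read from the same fit. None of 12 further granule cell genes (among them Plk5, Dock10, Stxbp6, Lct, Pdzd2, Smad3, Tanc1, Akap7, Maml2, Rfx3 and Npnt) was called in any contrast, with medians of 0.11 and -0.06 between genotypes on the standard and ketogenic diets. Without KC888LL the standard diet median was 0.05. Their summed level was 816 to 873 CPM in the libraries labelled knockout and 689.7 to 903 CPM in wild type with standard food, and 838 to 1097 against 810.1 to 1038 CPM on the ketogenic diet, so the ranges overlapped. The highest sum was that of KC913RR, which stood apart in both directions, and the other 3 ketogenic knockout libraries were at 838 to 887 CPM. KC913RR held the lowest Plk5 of all 16 libraries, at 2.14 CPM next to 12.3 to 31.7 CPM, and the lowest Lct, at 6.82 CPM next to 22.2 to 74.1 CPM. It also held the highest Tanc1, Smad3 and Pdzd2, at 343, 154 and 150.5 CPM, where the next libraries held 227, 84.7 and 103 CPM. Akap7, an anchoring protein for protein kinase A, had the smallest p of the list, with a log2 fold change of -0.27 ± 0.07 on the ketogenic diet (edgeR, adjusted p = 0.393). Of 6 genes of immature granule cells 0 were called, and Calb2, calretinin, which also marks interneurons and mossy cells, had the smallest p, at 29.4 ± 3.36 CPM on the ketogenic and 49.0 ± 1.74 CPM on the standard diet in knockout (edgeR, adjusted p = 0.111).

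Among the binding partners and relatives of the C1ql proteins, 5 of 6 listed genes were tested and C1ql4 was not. Nrxn3, a presynaptic neurexin that binds C1ql2, rose with the ketogenic diet in knockout, from 157 ± 13.2 to 190.0 ± 8.02 CPM (SD, n = 4), by 0.28 ± 0.06 on the log2 scale (edgeR, adjusted p = 0.0337). It was called under 7 of 14 alternatives and not without KC872RL, KC873RR, KC913RR, KC916RRL or KC935LL. Nor was it called with Xist as a covariate, at 0.24 (edgeR, adjusted p = 0.219), or with only the groups compared, at 0.27 (adjusted p = 0.196). Ddx3y was at no more than 0.150 CPM in the ketogenic knockout libraries while 2 of the 4 on the standard diet held it. Without KC888LL it was also lower in knockout on the standard diet, where 5.73% of all genes were called, and Grik4, a kainate receptor subunit, joined it in the diet contrast, where 6.18% were. Of 9 listed genes of the kynurenine pathway that Tdo2 opens, Ido2, Afmid, Kyat1 and Kmo were tested and none was called. Afmid, the next enzyme after Tdo2, had the smallest p, with a log2 fold change of 0.67 ± 0.28 on the standard diet (edgeR, adjusted p = 0.292).

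Peptides and growth factors listed for mossy fibres were also not called with all libraries, 0 of 5 in each contrast. In bulk tissue their levels cannot be assigned to granule cells alone. Npy, neuropeptide Y, was at 15.1 to 20.2 CPM in the 8 wild type libraries. Those labelled knockout held it at 153, 42.4 and 91.2 CPM in KC872RL, KC873RR and KC893RL and 18.3 CPM in KC888LL, and on the ketogenic diet at 59.9 and 100.3 CPM in KC913RR and KC934R against 20.04 and 18.4 CPM in KC916RRL and KC935LL. Penk, proenkephalin, was at 9.63 to 17.9 CPM in wild type, at 49.7 to 119 CPM in those 5 libraries, and at 10.2 to 18.7 CPM in the other 3. These 5 libraries were the ones with low Dsp. Cck, cholecystokinin, had the smallest p of the list on the standard diet, at 205 ± 19.3 CPM in wild type and 145 ± 33.5 CPM in libraries labelled knockout, a log2 fold change of -0.50 ± 0.12 (edgeR, adjusted p = 0.192). Pdyn, prodynorphin, had the smallest p on the ketogenic diet, at 13.7 ± 2.51 CPM in wild type and 8.44 ± 1.80 CPM in knockout without overlap, a log2 fold change of -0.70 ± 0.19 (edgeR, adjusted p = 0.395). Its standard diet value was -0.06 ± 0.19, and the interaction was -0.64 ± 0.27 (edgeR, adjusted p = 0.654). Npy and Penk were named here after their values were seen. Without KC888LL, Npy was called higher and Cck lower on the standard diet, beside 5.73% of all genes. In that fit Cck was also called higher with the ketogenic diet in knockout, beside 6.18% of all genes.

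Markers of neighbouring cells were read to show what moved beside the members. All 6 reactive astrocyte genes were higher in the libraries labelled knockout on both diets, 0 of them called, with medians of 1.37 and 1.42. Their summed level was 372 to 492 CPM in wild type and 438 to 2873 CPM in libraries labelled knockout on the standard diet, and 388 to 421 against 376 to 2461 CPM on the ketogenic diet. The sums of KC888LL, KC916RRL and KC935LL were 438, 376 and 382 CPM, none above the wild type libraries of its diet. On the ketogenic diet S1pr3 was at 63.6 CPM in KC913RR but at 7.48, 8.34 and 6.46 CPM in KC916RRL, KC934R and KC935LL, beside 6.38 to 8.78 CPM in wild type. Cd44 was at 47.1 CPM in KC913RR and at 3.51, 5.03 and 3.82 CPM in those libraries, beside 2.73 to 4.53 CPM in wild type. Serpina3n, a secreted protease inhibitor of reactive astrocytes, had a log2 fold change of 1.63 ± 0.54 on the standard diet (edgeR, adjusted p = 0.226). It was the 1 gene of the list called there without KC888LL, in the fit that called 5.73% of all genes. Microglia genes were higher in 6 of 6 between genotypes on the standard diet, with a median of 0.51, 5 at an unadjusted p under 0.05 (beside 14.3% of all genes) and 0 called, and 4 were called without KC888LL, beside 5.73% of all genes. Their summed level on that diet was 500.5 and 506 CPM in KC872RL and KC873RR, the 2 libraries of the group with Ddx3y, but 253 and 260.3 CPM in KC888LL and KC893RL, inside the wild type range of 240.4 to 276 CPM. On the ketogenic diet 6 of 6 were lower, with a median of -0.12 and 0 called. Genes of CA1 pyramidal cells had medians of -0.22 and -0.32 and CA3 and CA2 genes -0.14 and 0.04, with 0 of 6 called in each with all libraries. On the standard diet all 6 CA1 genes were lower, Lefty1 at -0.78 ± 0.30 (edgeR, adjusted p = 0.265), and on the ketogenic diet 5 of 6 were. Without KC888LL, Lefty1 was called lower on the standard diet, beside 5.73% of all genes. In that fit it was also called higher with the ketogenic diet in knockout, beside 6.18% of all genes. Pou3f1 of CA1 was at -0.43 ± 0.14 on the ketogenic diet (edgeR, adjusted p = 0.417) and Iyd of CA3 at -0.59 ± 0.24 on the standard diet (adjusted p = 0.275). Summed CA1 levels were 352 to 482 CPM in the libraries labelled knockout and 396 to 608 CPM in wild type on the standard diet. No interneuron gene of 6 was called, and Gad2 had the smallest p, at 0.46 ± 0.12 between genotypes with ketogenic food (edgeR, adjusted p = 0.378). Between genotypes 6 of 6 were higher in knockout on the standard diet, with a median of 0.17. On the ketogenic diet 5 of 6 were, with a median of 0.18. On each diet 3 had an unadjusted p under 0.05 in edgeR, beside 14.3% and 9.22% of all genes. Summed interneuron levels on the standard diet were 805 to 971 CPM in libraries labelled knockout and 733 to 770 CPM in wild type. On the ketogenic diet they were 780 to 1073 against 681 to 788 CPM. The part of these cell types in the differences of the members was not tested.

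Glial genes were also read in the diet contrast in knockout, where 1.16% of all genes were called. All 6 oligodendrocyte genes fell, with a median of -0.92: Mag, a myelin-associated adhesion protein, was at -0.80 ± 0.13 (edgeR, adjusted p = 0.0144), and the myelin genes Cnp and Mbp were at -1.02 ± 0.17 and -0.86 ± 0.16. Mag and Cnp were called under 11 of 14 alternatives and Mbp under 10, and none of the 3 was called without KC872RL, with Xist as a covariate (edgeR, adjusted p = 0.0588 to 0.0973) or with only the groups compared (adjusted p = 0.0869 to 0.120), nor was Mbp without KC873RR. With the covariate Mag, Cnp and Mbp were at -0.85, -0.98 and -0.88. Mog and Mobp, also myelin genes, were called under 5. Their summed level was 4849 to 5315 CPM on the standard and 1870.3 to 3495 CPM on the ketogenic diet. Tcf7l2, a transcription factor in the thalamus list, fell by 1.24 ± 0.28 on the log2 scale (edgeR, adjusted p = 0.0418). It was the 1 called gene of the 6 in that list. It was called under 6 of 14 alternatives and not with Xist as a covariate, where it was at -1.05. Which cells its fall came from was not tested. No gene of 6 was called for microglia, where P2ry12 was at -0.77 ± 0.18 (edgeR, adjusted p = 0.0535), with a summed level of 253 to 506 CPM on the standard and 225 to 238 CPM on the ketogenic diet. The high standard diet libraries were again KC872RL and KC873RR. Without KC888LL all 6 microglia genes were called lower in this contrast, with a median of -0.85, beside 6.18% of all genes called in that fit. None of the 6 genes of meninges and choroid plexus was called, and their summed level ran from 84.4 to 605 CPM on the standard and from 65.2 to 93.7 CPM on the ketogenic diet in the libraries labelled knockout. The smallest p in that list was that of Col1a1, a fibrillar collagen, at 0.95 ± 0.29 between genotypes on the ketogenic diet (edgeR, adjusted p = 0.411), and Plekhg1 of the thalamus list was at -0.56 ± 0.12 there (adjusted p = 0.193). Without KC888LL, Col1a1 was called higher in knockout on the standard diet, beside 5.73% of all genes. Whether the tissue taken differed between libraries was not tested.

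**Figure D5:**
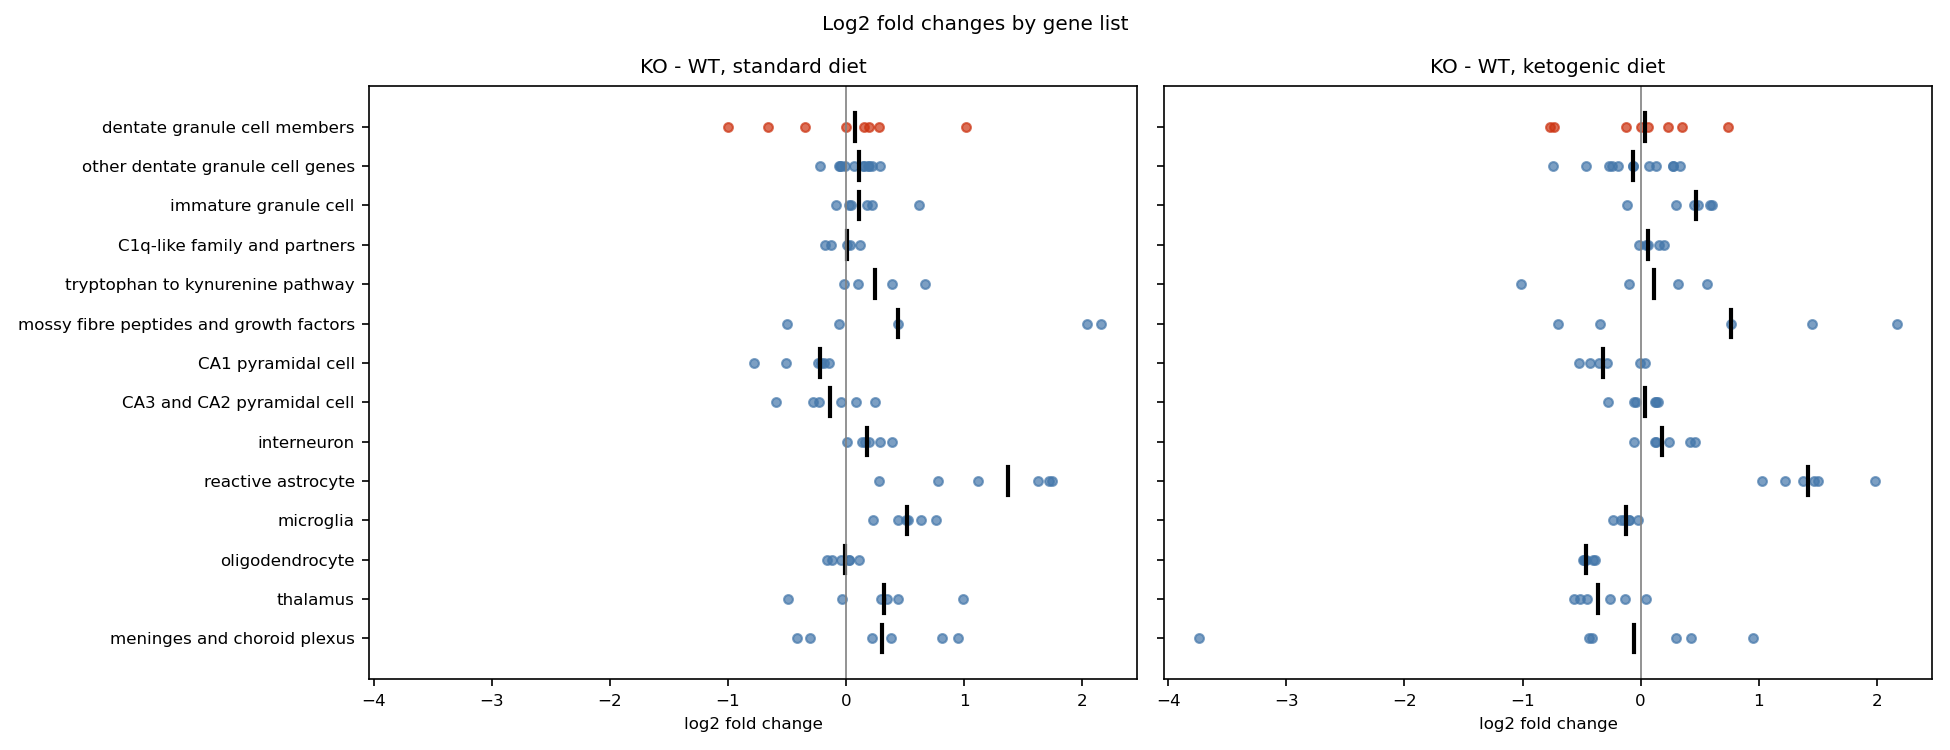
Log2 fold change (horizontal axes) of every tested gene of each list between genotypes on the standard (left) and ketogenic (right) diet in the edgeR fit, with points for genes and a bar for the list median. Medians of the granule cell members were 0.07 and 0.04, with C1ql2 at 1.02 and 0.74 and Dsp at -1.001 and -0.77, beside 1.37 and 1.42 for reactive astrocyte genes.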

How the data were processed

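RNA sequencing counts were used for 16 mouse hippocampus libraries in 4 groups of 4. The authors deposited 1 table of raw counts per gene. The submitters' processing notes name the build mm10 and the tool DESeq2, with no role. The aligner, the annotation and the use of strand are not given in the sources used here, so overlapping or antisense genes are uncertain. Columns carry a library code, genotype and diet, and each was placed in its group by genotype and diet.

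Genes were filtered with filterByExpr by group, which left 17469, and tested with edgeR 4.0.16 in R 4.3.3: TMM scaling, a robust quasi-likelihood model with 1 coefficient per group (12 residual degrees of freedom), two-sided F tests and Benjamini-Hochberg adjustment over all tested genes. Called means an adjusted p under 0.05. CPM used effective library sizes, and log2 CPM a prior count of 2. Reads per kilobase used the union of exons of GENCODE M21, which also gave positions.

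The members and gene lists were chosen with earlier results of these data known. All members, Kcna1 and Gfap were named whatever their values. From each list, called genes (up to 4) and the gene of smallest p over the 5 planned contrasts were to be named. Genes of like pattern were the 2 with the highest Pearson's r. Some genes that these rules select are left out of the text. Alternatives were DESeq2 1.42.0, DESeq2 size factors in edgeR, no filter, limma-voom (limma 3.58.1), only the groups compared, a covariate for Xist, and leaving out 1 library at a time. Added after seeing the data were the contrast over both diets and the ratio to Prox1. Total counts of 13440230 to 22309504 set the depth.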

Additional observations from a re-analysis of the deposited data

Results flagged for a closer look

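With 4 libraries per group, 32 sets of values (8 members in 4 groups) were examined for a library far from the other 3 by Dixon's ratio. This was so in 5 sets, which came from 3 libraries, and chance alone marks about 1 in 20 sets. KC888LL, the library labelled knockout with a Kcna1 level between the genotypes, was far above its group for Dsp, at 118 CPM where the next library held 37.6 CPM, for Calb1, at 129 CPM next to 80.7 CPM, and for Prox1, at 164 CPM next to 138 CPM. In the ketogenic knockout group KC913RR was high for Prox1, at 204 CPM next to 156 CPM. Among wild type libraries on the ketogenic diet KC846L was high for Dsp, at 198 CPM next to 108 CPM.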

How the results depend on the processing

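The number of members called was 0 in each contrast, and DESeq2 moved it to 1 (C1ql2) between genotypes on either diet and over both diets. With each library left out in turn it ranged from 0 to 3 on the standard diet, from 0 to 3 over both diets and from 0 to 1 for diet in knockout, and the highest came without KC888LL. Over all genes, calls on the standard diet were 1, 169 with DESeq2, 18 with no filter, 1016 without KC888LL and 0 without each of the other 7 libraries of those groups. For diet in knockout they were 202, 677 with DESeq2, 9 with only the groups compared and 7 with Xist as a covariate, and they were 28, 46, 87, 88 and 1096 without KC872RL, KC873RR, KC913RR, KC916RRL and KC888LL. Over both diets they were 17, 416 with DESeq2 and 71 with no filter, and ranged from 6 to 880 with 1 library left out. On the ketogenic diet they were 3, 45 with DESeq2, 11 with no filter and 1 to 13 with 1 library left out, for diet in wild type 2, 12 with DESeq2 and 11 with only the groups compared, and for the interaction 0, 7 with DESeq2 and 2 with no filter.

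Of the members' log2 fold changes, 734 values under an alternative kept direction and side of the threshold, 12 came past it and 38 changed sign. Sign changes fell on values that were not called. C1ql3 between genotypes on the ketogenic diet was -0.00097 with no filter, and limma-voom gave 0.0111 for Prox1 on the standard diet and -0.0843 for Tdo2 with diet in knockout. Leaving out 1 library gave -0.0709 to 0.0686 for C1ql3 on the ketogenic diet. Prox1 ranged from -0.116 to 0.0699 between genotypes on standard food, -0.0484 to 0.222 on ketogenic food, -0.0248 to 0.108 over both, -0.0470 to 0.228 for the interaction and -0.0149 to 0.218 for diet in wild type. Diet values ranged from -0.0329 to 0.414 for Dsp in wild type, and in knockout from -0.175 to 0.140 for C1ql2 and -0.129 to 0.511 for Tdo2. Interactions ranged from -0.405 to 0.235 for Tdo2, -0.126 to 0.200 for Glis3 and -0.0814 to 0.243 for Trpc6. The cause was not tested. No paired analysis was possible because the columns carry no replicate numbers. Depth limits Tdo2 most, at 14 counts in KC913RR.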
